A study of Mus musculus with 21 samples.

Results

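The genes described here are 9 GTPases that interferons induce (Gbp2, Gbp3, Gbp4, Gbp5, Gbp6, Gbp7, Igtp, Irgm1 and Irgm2) and Irf1, which encodes the transcription factor IRF1. These 10 genes were taken by symbol from a table of 23415 genes, which lists them as GBP2, GBP3, GBP4, GBP5, GBP6, GBP7, IGTP, IRGM1, IRGM2 and IRF1. They were read in the 16 of 21 libraries that held at least 7000 genes at 1 TPM (transcript abundance corrected for length and scaled to the same total in every library) or more. All 10 reached 1 TPM in at least 3 of these libraries, which was the filter for testing.

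RNA of mouse CD4 T cells was sequenced in bulk after 5 days of culture on antibodies against CD3 and CD28. The cells began as naive T cells that had been purified from lymphoid organs (spleen, lymph nodes). The mice had a single copy of an Il23r reporter allele, which carries eGFP behind an IRES and makes no working IL-23 receptor. All groups shared this genotype, so every group kept 1 working Il23r allele, and they differed in the cytokines added and in the gate used after culture, GFPpos or GFPneg. IL-12, IL-21, IL-1b and IL-23 were used at 20 ng/ml, IL-6 at 25 ng/ml and TGF-b at 2 ng/ml. IL-6 was in every culture without IL-12 and in none with it, so presence of IL-12 and absence of IL-6 cannot be told apart. The libraries used were 3 of GFPpos IL-12+IL-21 cells, 2 of IL-12+IL-21 GFPneg, 2 of IL-12 GFPneg, 3 of IL-1b+IL-6+IL-23 GFPpos, 3 of IL-1b+IL-6+IL-23 GFPneg, 1 of TGFb+IL-6 GFPpos and 2 of TGFb+IL-6 GFPneg. The labels do not say whether replicates came from separate mice or cultures, so p-values measure the spread between these libraries, which may be technical.

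The 5 libraries left out held 190 to 5608 genes at 1 TPM or more, against 7522 to 9248 in the 16 used. They were IL-12+IL-21 GFPneg replicate 3, IL-12 GFPneg replicate 1, TGFb+IL-6 GFPpos replicates 2 and 3 and TGFb+IL-6 GFPneg replicate 3. With all 21 libraries in the fit, 0 of the 10 genes passed in any comparison. TPM holds no read number, so the depth behind each value was unknown. Il23r had 24.2 to 36.4 TPM in GFPpos IL-12+IL-21 cells against 3.04 to 6.36 TPM in IL-12+IL-21 GFPneg cells. It had 21.7 to 38.9 TPM in GFPpos IL-1b+IL-6+IL-23 cells against 6.02 to 7.56 TPM in the GFPneg cells, and 3.57 TPM in the TGFb+IL-6 GFPpos library against 0.73 to 0.87 TPM in the GFPneg ones. All 5 CD4 T cell markers (Cd3e, Cd3d, Cd3g, Cd4 and Cd28) averaged at least 1 TPM in every group. The summed level of 5 B cell markers was 0.04 to 1.35 TPM and that of 5 natural killer cell markers 0 to 2.25 TPM over the groups. The CD8 T cell markers Cd8a and Cd8b1 summed to 4.99 to 9.80 TPM in libraries with IL-12, 7.81 to 17.4 TPM under IL-1b, IL-6 and IL-23 and 6.15 to 17.5 TPM under TGFb+IL-6; Cd8a was at most 0.29 TPM, and their part in the results was not tested. Of 8 myeloid markers, Cst3 made up nearly all of the sum, with 176 to 539 TPM, and Lyz2, Adgre1, Itgax and Fcgr1 were listed at 0 in all 16 libraries. The sum of the 8 was 177 to 381 TPM in libraries with IL-12, 438 to 542 TPM under IL-1b, IL-6 and IL-23 and 198 to 311 TPM under TGFb+IL-6, and its part in the results was not tested.

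Interferon gamma binds the receptor made of the Ifngr1 and Ifngr2 products, and the signal ends at GAS elements in DNA. Irf1 is among the first genes to respond, and IRF1 in turn binds interferon-stimulated response elements (ISRE) near many other genes. Guanylate-binding proteins (GBP) and immunity-related GTPases (IRG) are among the most abundant products of this response in mouse cells, where they gather on the vacuoles of intracellular parasites and bacteria. In T cells, IL-12 drives the Th1 program, in which the cells make interferon gamma themselves, while IL-6 leads to Th17 cells when TGF-b or the pair of IL-23 and IL-1b is added.

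The 10 genes are protein-coding and lie on 3 chromosomes of the mouse genome (GRCm38, GENCODE M21). On the plus strand of chromosome 3 lie Gbp5 (142493978 to 142522344), Gbp7 (142530342 to 142550149), Gbp3 (142560026 to 142573209) and Gbp2 (142620602 to 142638008). On the minus strand of chromosome 5 lie Gbp4 (105115767 to 105139586) and Gbp6 (105270702 to 105293698). On chromosome 11, Irgm1 lies on the minus strand (48861968 to 48871683), and Irf1 (53770014 to 53778374), Igtp (58199556 to 58207591) and Irgm2 (58199618 to 58222782) on the plus strand. The annotated spans of Igtp and Irgm2 overlap on the same strand, and Gbp4 overlaps Gbp8 and Gbp9. Of all 38-base words in the Gbp6 transcripts, the length of 1 read, 72.6% also occur in transcripts of other genes, 66.7% in those of Gm43302, so the value of Gbp6 is uncertain. The shared part was 14.2% for Igtp, 13.9% for Gbp7, 11.3% for Gbp4, 9.48% for Irgm2 and under 5% for the others.

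Promoter windows of 250 bases before to 50 after the transcript start (RefSeq, GRCm38.p6) were at hand for 8 of the 10 genes, all but Gbp4 and Gbp6. They were searched for an ISRE core, the letters GAAA, any 2 bases and GAAA again, on either strand, and for a GAS core, TTCNNNGAA, which reads the same on both strands. The ISRE core was found in 7 of the 8 genes, every GTPase with a window, against 3.44% of 32851 windows of all genes. The GAS core was found in 5 of the 8, against 8.3% of all windows, and both cores in 4, against 0.454%. A match describes the letters only and is not a measured binding site. Irf1, Igtp and Gbp2 passed (adjusted p under 0.05, below) in every comparison with an IL-12 culture against one without. Irgm1 and Irgm2 passed only in the one against TGFb+IL-6, and Gbp7 in none of them. Gbp3 and Gbp5 also held an ISRE core and are not shown. Whether the letters go with the levels was not tested. The stretches around the cores of the other 6 genes are shown, with matches in capitals and each read 5′ to 3′ on the gene's own strand. They come from chr11:53769904-53769947 for Irf1, chr11:58199491-58199546 for Igtp, chr11:58214882-58214937 for Irgm2, chr3:142620584-142620628 for Gbp2, chr3:142530210-142530307 for Gbp7, all on the plus strand, and chr11:48871431-48871460 on the minus strand for Irgm1.
Irf1: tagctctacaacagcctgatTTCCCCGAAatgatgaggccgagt
Igtp: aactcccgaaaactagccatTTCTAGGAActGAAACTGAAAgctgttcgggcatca
Irgm2: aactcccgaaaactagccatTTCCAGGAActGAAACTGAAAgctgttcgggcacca
Gbp2: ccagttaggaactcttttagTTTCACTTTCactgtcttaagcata
Gbp7: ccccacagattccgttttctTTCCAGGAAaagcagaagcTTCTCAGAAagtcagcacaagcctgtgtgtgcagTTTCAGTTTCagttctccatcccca
Irgm1: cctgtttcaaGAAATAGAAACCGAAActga

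Irf1 was the 1 gene whose windows held a GAS core and no ISRE core. In Igtp and Irgm2 a GAS core stands just before an ISRE core, and 54 of the 56 bases shown are the same. The differences are T24C and T54C, counted from 1 at the 5′ end of the stretch, with the Igtp base first. Gbp7 has 2 GAS cores and an ISRE core read on the other strand, Gbp2 has an ISRE core on the other strand, and Irgm1 has 2 ISRE cores that overlap. The windows follow RefSeq starts, and by GENCODE not every stretch lies before its gene. Of the bases shown, 27 of 45 for Gbp2 and all 30 for Irgm1 lie in a GENCODE exon, their ISRE cores included. The Irgm2 stretch lies inside the annotated span of Irgm2. For Irgm2 and Gbp7, the bases looked up just after the start were found in no GENCODE transcript of the gene.

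For all 10 genes, the highest mean over the libraries of a culture was that with IL-12 or that with IL-12+IL-21. The lowest was that with TGFb+IL-6. Gbp7 averaged 1.25 TPM with IL-12, under its 2.18 TPM with IL-1b+IL-6+IL-23. Igtp, an IRG of the regulatory kind that keeps effector IRGs inactive on the cell's own membranes, had the highest level of the 9 GTPases in every library. It made up 55.7% to 59.8% of their summed TPM in IL-12+IL-21 libraries, 63.5% to 65.4% with IL-12, 46.0% to 56.1% under IL-1b+IL-6+IL-23 and 48.8% to 54.2% with TGFb+IL-6. The summed level of the 9 GTPases was 751 to 964 TPM in the 5 IL-12+IL-21 libraries, 830 to 949 TPM in the 2 IL-12 libraries, 188 to 331 TPM in the 6 IL-1b+IL-6+IL-23 libraries and 96.5 to 132 TPM in the 3 TGFb+IL-6 libraries. In bulk RNA, fewer cells that express a gene and less RNA of it per cell cannot be told apart.

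Igtp had 559, 456 and 510 TPM in GFPpos IL-12+IL-21 cells, 553 and 443 TPM in IL-12+IL-21 GFPneg cells, and 602 and 543 TPM in IL-12 GFPneg cells. In IL-1b+IL-6+IL-23 cultures it had 87.1, 122 and 153 TPM in GFPpos cells and 152, 136 and 182 TPM in GFPneg cells, and in TGFb+IL-6 cultures 67.6 TPM in the GFPpos library and 47.1 and 66.8 TPM in GFPneg cells. Every library with IL-12 was above every library without it, and every IL-1b+IL-6+IL-23 library was above every TGFb+IL-6 library. How many of all genes have levels without overlap between cultures, here and below, was not counted.

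Gbp2, a GBP known in mice for restricting Toxoplasma gondii, was the next most abundant GTPase in every library. It had 242, 203 and 271 TPM in GFPpos IL-12+IL-21 cells, 230 and 192 TPM in IL-12+IL-21 GFPneg cells, and 192 and 175 TPM in IL-12 GFPneg cells. It had 51.9, 48.4 and 81.4 TPM in GFPpos IL-1b+IL-6+IL-23 cells and 69.8, 48.8 and 73.1 TPM in the GFPneg cells, and in TGFb+IL-6 cultures 32.8 TPM in the GFPpos library and 29.0 and 31.3 TPM in GFPneg cells. The 3 levels did not overlap between cultures with IL-12, the IL-1b+IL-6+IL-23 culture and the TGFb+IL-6 culture.

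Gbp4 and Gbp6, both in the GBP cluster of chromosome 5, had the widest spread between cultures. Gbp4 had 34.8, 26.5 and 32.3 TPM in GFPpos IL-12+IL-21 cells, 33.4 and 28.7 TPM in the GFPneg cells, and 36.6 and 22.9 TPM in IL-12 GFPneg cells. It had 7.20, 6.01 and 9.60 TPM in GFPpos IL-1b+IL-6+IL-23 cells and 16.8, 9.70 and 9.77 TPM in the GFPneg cells, and in TGFb+IL-6 cultures 1.72 TPM in the GFPpos library and 1.06 and 1.08 TPM in GFPneg cells. The 3 culture levels again did not overlap. Gbp6 had 36.0, 27.8 and 25.3 TPM in GFPpos IL-12+IL-21 cells, 33.4 and 30.4 TPM in the GFPneg cells, and 40.9 and 23.2 TPM in IL-12 GFPneg cells. It had 6.21, 6.15 and 7.52 TPM in GFPpos IL-1b+IL-6+IL-23 cells and 11.7, 9.69 and 7.51 TPM in the GFPneg cells, and in TGFb+IL-6 cultures 1.93 TPM in the GFPpos library and 0.27 and 1.00 TPM in GFPneg cells.

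Irf1 showed a step between the cultures with IL-12 and the others, and its levels under IL-1b+IL-6+IL-23 and with TGFb+IL-6 overlapped. It had 69.3, 66.7 and 95.4 TPM in GFPpos IL-12+IL-21 cells, 75.0 and 78.7 TPM in the GFPneg cells, and 64.8 and 55.4 TPM in IL-12 GFPneg cells. It had 10.9, 13.4 and 22.7 TPM in GFPpos IL-1b+IL-6+IL-23 cells and 21.02, 13.0 and 20.3 TPM in the GFPneg cells, and in TGFb+IL-6 cultures 12.9 TPM in the GFPpos library and 8.72 and 10.1 TPM in GFPneg cells.

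Irgm1, a regulatory IRG that mouse CD4 T cells need to survive and expand when interferon gamma is present, followed another order. It had 75.0, 48.9 and 59.2 TPM in GFPpos IL-12+IL-21 cells, 57.9 and 44.0 TPM in the GFPneg cells, and 58.2 and 50.6 TPM in IL-12 GFPneg cells. It had 26.6, 43.7 and 53.1 TPM in GFPpos IL-1b+IL-6+IL-23 cells and 69.2, 39.9 and 40.8 TPM in the GFPneg cells, and in TGFb+IL-6 cultures 21.6 TPM in the GFPpos library and 13.7 and 19.0 TPM in GFPneg cells. Cultures with IL-12 and the IL-1b+IL-6+IL-23 culture thus overlapped, and all of these libraries were above the TGFb+IL-6 libraries.

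The other members were scarce. Irgm2, the remaining regulatory IRG, had 5.32 to 8.28 TPM with IL-12+IL-21, 7.85 to 10.8 TPM with IL-12, 3.04 to 6.35 TPM under IL-1b+IL-6+IL-23 and 1.77 to 4.12 TPM with TGFb+IL-6. Gbp5, which in mouse macrophages promotes inflammasome activity, had 2.26 to 4.00 TPM with IL-12+IL-21, 1.54 to 2.31 TPM with IL-12, 0.33 to 1.72 TPM under IL-1b+IL-6+IL-23 and 0.30 to 0.70 TPM with TGFb+IL-6. Gbp3 and Gbp7, 2 further GBPs of the chromosome 3 cluster, stayed under 5 TPM in all 16 libraries. Gbp7 had 1.74 to 3.53 TPM with IL-12+IL-21, 1.24 and 1.26 TPM with IL-12 and 1.13 to 3.03 TPM with IL-1b+IL-6+IL-23, ranges that overlap, against 0.39 to 1.00 TPM with TGFb+IL-6. Gbp3 had 1.86 to 4.98 TPM with IL-12+IL-21, 4.16 to 4.99 TPM with IL-12, 2.00 to 3.63 TPM under IL-1b+IL-6+IL-23 and 0.31 to 1.84 TPM with TGFb+IL-6.

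**Figure D1:**
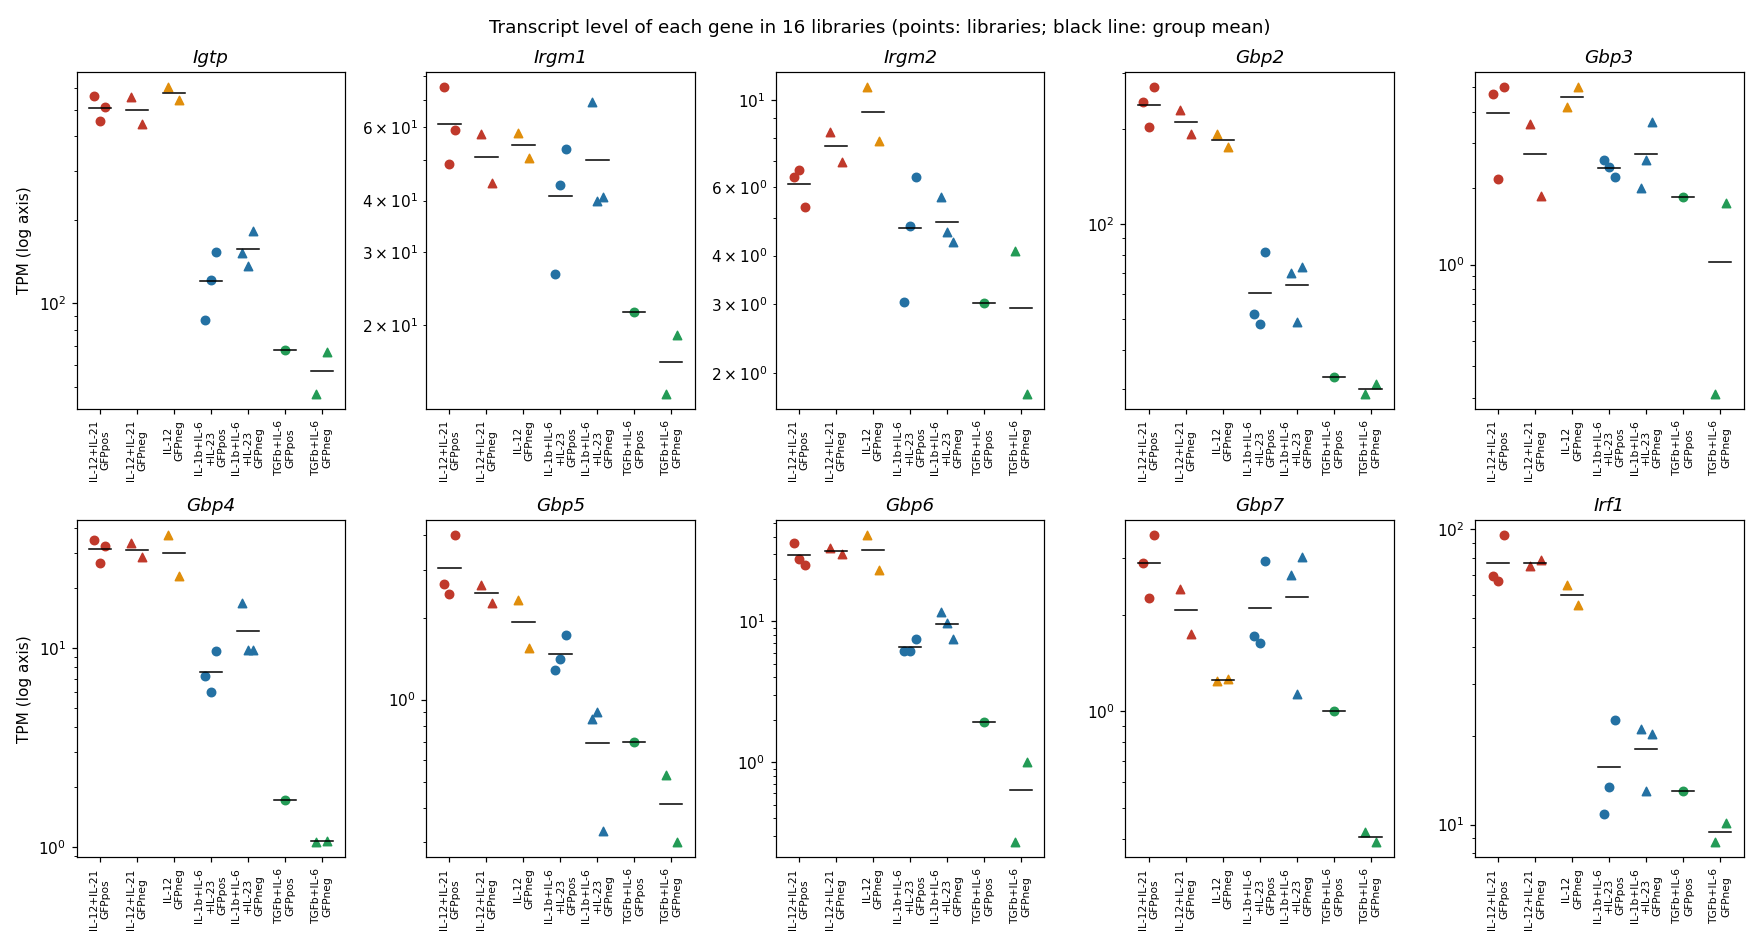
Transcript level (TPM, log axis with its own range in each panel) of the 10 genes in 16 libraries of 7 groups; circles are GFPpos libraries, triangles GFPneg libraries, colours mark the cultures and black lines the group means. Igtp, Gbp2, Gbp4 and Gbp6 lie at 3 levels that do not overlap, highest with IL-12 and lowest with TGFb+IL-6. Irf1 has 1 large step, and the levels of Irgm1 overlap in all cultures but TGFb+IL-6.

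With IL-12 and IL-21 in place of IL-1b, IL-6 and IL-23, 5 of the 10 genes were higher in GFPpos cells: Irf1, Igtp, Gbp6, Gbp2 and Gbp4. Levels averaged 77.1 ± 15.9 TPM in IL-12+IL-21 cells against 15.6 ± 6.21 TPM in IL-1b+IL-6+IL-23 cells for Irf1, and 508 ± 51.3 against 121 ± 33.2 TPM for Igtp (SD, n = 3 each). In limma's test on log2(TPM + 1), with Benjamini-Hochberg adjustment over 9592 genes, the difference of Irf1 was 2.28 ± 0.25 (SE, adjusted p = 2.46e-05) and that of Igtp 2.10 ± 0.20 (adjusted p = 4.43e-06). Gbp6 differed by 2.00 ± 0.26, Gbp2 by 1.99 ± 0.21 and Gbp4 by 1.92 ± 0.26 on the same log2 scale, with adjusted p-values in limma of 0.000117, 1.18e-05 and 0.000152. Of all genes tested, 3.59% were higher and 1.38% lower in this comparison, and the median difference was 1.30 over the 10 genes and 0.15 over all genes tested. All 10 differences were above 0, and the members that did not pass were Gbp5 (0.69, 95% interval 0.16 to 1.22), Irgm1 (0.59, 0.02 to 1.17), Gbp3 (0.48, -0.21 to 1.18), Irgm2 (0.35, -0.24 to 0.95) and Gbp7 (0.34, -0.25 to 0.94). The calls stood at 5 whichever of the 6 libraries was left out.

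In GFPneg cells the same 5 genes passed with IL-12 and IL-21 against IL-1b, IL-6 and IL-23, where 2.16% of all genes tested were higher and 1.25% lower. Irf1 averaged 76.9 ± 2.61 TPM (SD, n = 2) in IL-12+IL-21 cells against 18.1 ± 4.45 TPM (SD, n = 3) in IL-1b+IL-6+IL-23 cells. Its log2 difference was 2.06 ± 0.28 (SE, limma adjusted p = 0.000346). Gbp2 differed by 1.72 ± 0.23 (adjusted p = 0.000284), Igtp by 1.66 ± 0.22 (0.000281), Gbp6 by 1.65 ± 0.29 (0.00328) and Gbp4 by 1.33 ± 0.29 (0.0138), all by limma. Gbp5 differed by 1.04 (95% interval 0.45 to 1.63) with an adjusted p of 0.0526 in limma, just over the threshold of 0.05. The intervals of the remaining 4 held 0: 0.56 (-0.11 to 1.22) for Irgm2, 0.06 (-0.58 to 0.71) for Irgm1, -0.02 (-0.80 to 0.75) for Gbp3 and -0.05 (-0.71 to 0.62) for Gbp7. The calls were 3 without IL-12+IL-21 GFPneg replicate 1, since Gbp4 and Gbp6 no longer passed; Gbp4 was also lost without IL-12+IL-21 GFPneg replicate 2 or IL-1b+IL-6+IL-23 GFPneg replicate 2 or 3, with log2 differences of 1.21 to 1.57 over the 5 fits that left out a library.

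IL-12 alone was set against the same 3 IL-1b+IL-6+IL-23 GFPneg libraries, so this comparison shares its controls with the last. Igtp, Irf1, Gbp6, Gbp2 and Gbp4 were higher, 5 of the 10 genes, where 4.3% of all genes tested were higher and 2.71% lower. Igtp averaged 572 ± 42.3 TPM (SD, n = 2) in IL-12 cells against 157 ± 23.1 TPM (SD, n = 3) in IL-1b+IL-6+IL-23 cells, a log2 difference of 1.87 ± 0.22 (SE, limma adjusted p = 5.72e-05). Irf1 differed by 1.70 ± 0.28 (adjusted p = 0.00124), Gbp6 by 1.60 ± 0.29 (0.00235), Gbp2 by 1.53 ± 0.23 (0.000538) and Gbp4 by 1.24 ± 0.29 (0.0143), all by limma. Irgm2 (0.81, 95% interval 0.14 to 1.47), Gbp5 (0.79, 0.20 to 1.39), Gbp3 (0.60, -0.18 to 1.37), Irgm1 (0.16, -0.48 to 0.81) and Gbp7 (-0.49, -1.15 to 0.18) did not pass. The calls fell to 3 without IL-12 GFPneg replicate 2, the higher of both IL-12 libraries for Gbp4 (36.6 against 22.9 TPM) and Gbp6 (40.9 against 23.2 TPM), and the 2 genes lost were these. Gbp4 was also lost without IL-1b+IL-6+IL-23 GFPneg replicate 2 or 3 and when only the libraries compared were fitted, and its log2 difference was 0.91 to 1.57 over the fits that left out a library.

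Against TGFb+IL-6, 8 of the 10 genes were higher in IL-12+IL-21 GFPneg cells, where 4.81% of all genes tested were higher and 2.01% lower. The largest difference was that of Gbp6, 31.9 ± 2.16 TPM in IL-12+IL-21 cells against 0.635 ± 0.516 TPM in TGFb+IL-6 cells (SD, n = 2 each), a log2 difference of 4.37 ± 0.32 (SE, limma adjusted p = 2.24e-07). Gbp4 followed with 31.1 ± 3.34 against 1.07 ± 0.0141 TPM (SD, n = 2 each) and a log2 difference of 3.95 ± 0.31 (limma adjusted p = 5.91e-07). Igtp differed by 3.12 ± 0.24, Irf1 by 2.90 ± 0.31 and Gbp2 by 2.76 ± 0.25 on this scale, with adjusted p-values in limma of 5.4e-07, 1.29e-05 and 2.71e-06. Irgm1, which did not pass against IL-1b+IL-6+IL-23, differed here by 1.59 ± 0.33 (limma adjusted p = 0.00686). Gbp5 differed by 1.29 ± 0.30 (adjusted p = 0.0158) and Irgm2 by 1.19 ± 0.34 (0.0486), while Gbp7 (1.12 ± 0.34, 0.0639) and Gbp3 (0.93 ± 0.40, 0.192) did not pass in limma. The calls were 5 without IL-12+IL-21 GFPneg replicate 1, 6 without replicate 2 of either group and 7 without TGFb+IL-6 GFPneg replicate 1. The genes lost were among Gbp5, Irgm1 and Irgm2, whose log2 differences over these fits were 1.17 to 1.41, 1.37 to 1.81 and 0.75 to 1.63. Irgm2 also missed the threshold in 6 other settings.

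IL-1b+IL-6+IL-23 cells also stood above TGFb+IL-6 cells, although neither culture held IL-12. In GFPneg cells 6 of the 10 genes were higher, where 10.6% of all genes tested were higher and 4.83% lower. Gbp6 averaged 9.62 ± 2.08 TPM (SD, n = 3) in IL-1b+IL-6+IL-23 cells against 0.635 ± 0.516 TPM (SD, n = 2) in TGFb+IL-6 cells, and Gbp4 12.1 ± 4.1 against 1.07 ± 0.0141 TPM. The log2 differences were 2.72 ± 0.29 for Gbp6 (SE, limma adjusted p = 1.04e-05) and 2.62 ± 0.29 for Gbp4 (adjusted p = 1.26e-05). Irgm1 differed by 1.53 ± 0.30 (limma adjusted p = 0.00268), Igtp by 1.46 ± 0.22 (0.0003), Gbp7 by 1.17 ± 0.31 (0.0188) and Gbp2 by 1.04 ± 0.23 (0.00624). Irf1 differed by 0.85 (95% interval 0.25 to 1.45) with an adjusted p of 0.0547 in limma, and Gbp3, Irgm2 and Gbp5 did not pass. The median difference was 1.10 over the 10 genes and 0.23 over all genes tested. The calls were 4 without TGFb+IL-6 GFPneg replicate 1, when Gbp2 and Gbp7 no longer passed, and Gbp7 was lost in 4 of the 5 fits that left out a library (0.99 to 1.45 over the 5), all but that without IL-1b+IL-6+IL-23 GFPneg replicate 2, which called 7 genes, Irf1 among them.

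**Figure D2:**
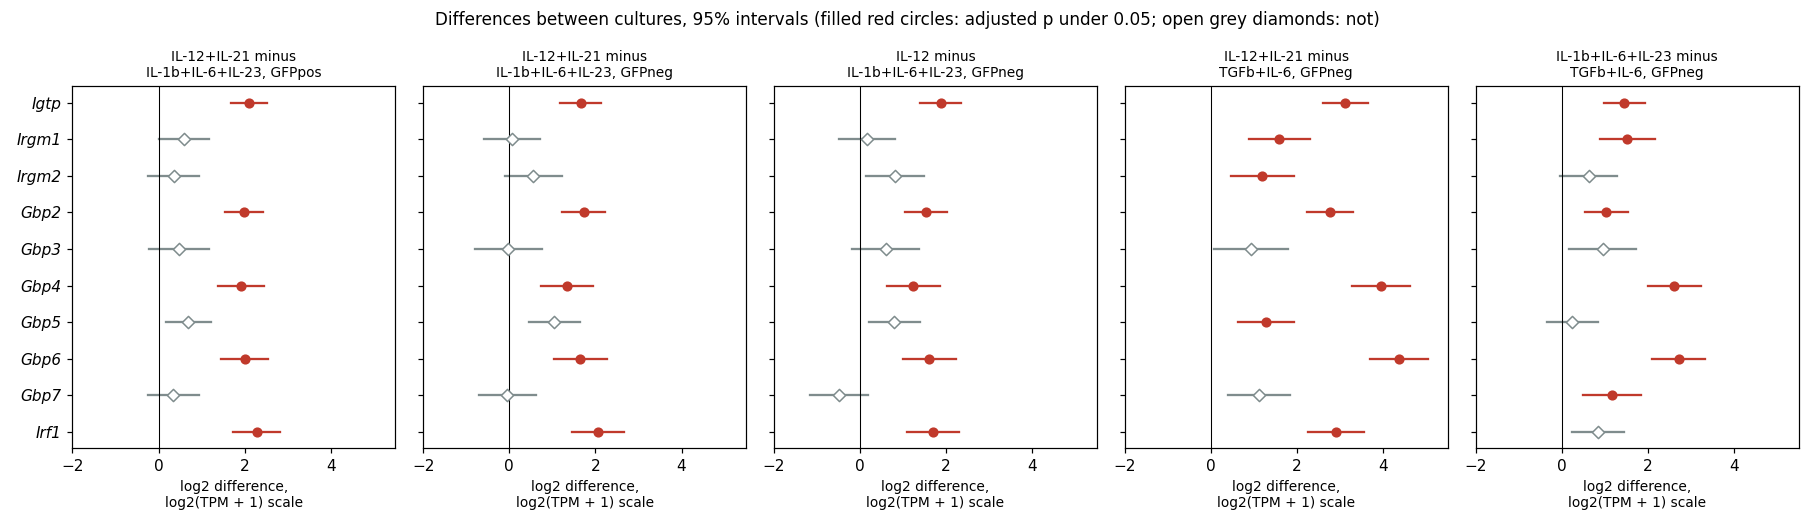
Log2 differences between cultures on the log2(TPM + 1) scale (x axis) for the 10 genes (y axis), with 95% intervals from limma; filled red circles have an adjusted p under 0.05 and open grey diamonds do not. The same 5 genes are filled in the first 3 panels (Igtp, Gbp2, Gbp4, Gbp6 and Irf1), and Irgm1 is filled only in the 2 panels set against TGFb+IL-6.

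Ratios within a library do not depend on its scaling. They were looked at after the values had been seen, so no p is given for them. The ratio of Igtp to Irgm1 was 7.45 to 10.1 in the 5 IL-12+IL-21 libraries and 10.4 to 10.7 in the 2 IL-12 libraries, against 2.2 to 4.45 in the 6 IL-1b+IL-6+IL-23 libraries and 3.14 to 3.52 in the 3 TGFb+IL-6 libraries. The ratio of Gbp2 to Irgm1 was 3.23 to 4.57 with IL-12+IL-21 and 3.31 to 3.46 with IL-12, against 1.01 to 1.95 under IL-1b+IL-6+IL-23 and 1.52 to 2.12 with TGFb+IL-6. In both ratios the libraries with IL-12 and without IL-6 lay above all others, while the cultures with IL-6 overlapped.

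**Figure D3:**
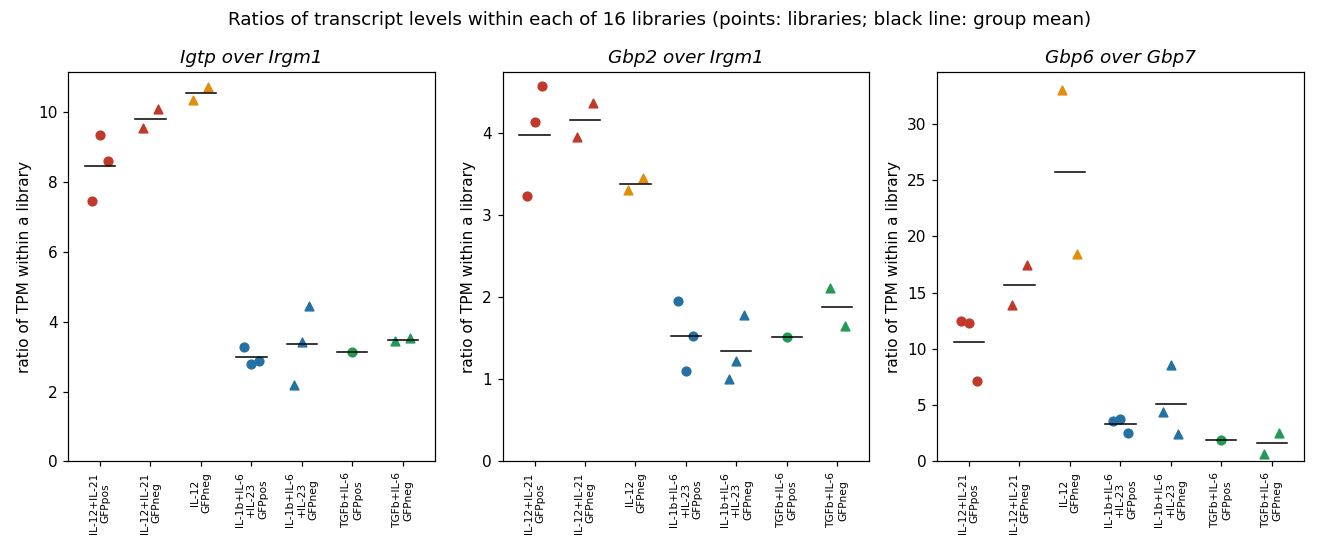
Ratios of TPM within each library (y axes start at 0) for 3 pairs of genes in 16 libraries of 7 groups; circles are GFPpos libraries, triangles GFPneg libraries and black lines group means. For Igtp over Irgm1 and Gbp2 over Irgm1 the libraries with IL-12 lie above all others; for Gbp6 over Gbp7 the lowest of them (7.16) is under the highest IL-1b+IL-6+IL-23 library (8.58).

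Adding IL-21 to IL-12 was tested in GFPneg cells, and 0 of the 10 genes passed in limma, with 0 at an unadjusted p under 0.05. Of all genes tested, 0.761% passed and 13.7% had an unadjusted p under 0.05. Igtp averaged 498 ± 78.0 TPM in IL-12+IL-21 cells against 572 ± 42.3 TPM in IL-12 cells, and Irf1 76.9 ± 2.61 against 60.1 ± 6.69 TPM (SD, n = 2 each). The 95% intervals of the log2 differences were -0.73 to 0.31 for Igtp, -0.35 to 0.73 for Gbp2 and -0.30 to 1.01 for Irf1, and over all 10 genes their bounds lay between -1.47 and 1.17.

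The reporter gate gave 0 calls among the 10 genes in each of the 3 cultures that had both gates, all by limma. Of all genes tested, 0.156% passed with IL-12+IL-21, 0.427% under IL-1b+IL-6+IL-23 and 0.323% with TGFb+IL-6. These 15, 41 and 31 genes became 0 to 3, 17 to 27 and 8 when a library was left out. At an unadjusted p under 0.05 there were 0, 2 and 1 of the 10 genes in these cultures, where 14.5%, 8.43% and 16.9% of all genes had one. Those were Gbp4 and Gbp5 under IL-1b+IL-6+IL-23 and Gbp6 with TGFb+IL-6. Gbp4 averaged 7.60 ± 1.83 TPM in GFPpos cells against 12.1 ± 4.1 TPM in GFPneg cells, and Gbp5 1.47 ± 0.226 against 0.693 ± 0.316 TPM (SD, n = 3 each). Their log2 differences were -0.58 ± 0.26 and 0.56 ± 0.25, with adjusted p-values in limma of 0.535 and 0.549. In IL-12+IL-21 cells the intervals were -0.44 to 0.51 for Igtp, -0.32 to 0.67 for Gbp2 and -0.62 to 0.59 for Irf1. With TGFb+IL-6 the GFPpos group was 1 library, whose spread was taken from the other groups. Whether the gate effect differed between the IL-12+IL-21 culture and that with IL-1b, IL-6 and IL-23 was tested too, and limma called 0 of the 10 genes and 0.0% of all genes; at an unadjusted p under 0.05 it had 0 of the 10 and 4.94% of all genes.

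**Figure D4:**
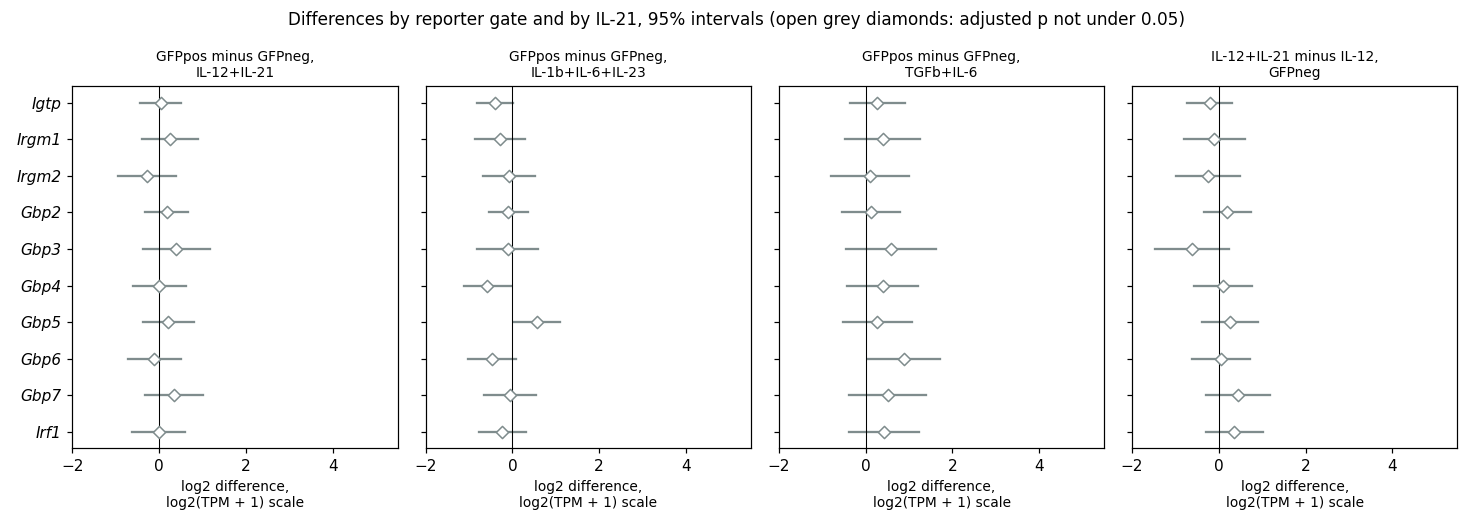
Log2 differences on the log2(TPM + 1) scale (x axis) for the 10 genes (y axis) between reporter gates in 3 cultures and between IL-12+IL-21 and IL-12 GFPneg cells, with 95% intervals from limma. All symbols are open grey diamonds, since no adjusted p was under 0.05; intervals reach from -1.47 (Gbp3 for IL-21) to 1.70 (Gbp6 with TGFb+IL-6).

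The ligand and its receptor were read beside the GTPases. Ifng, the gene of interferon gamma, had 450, 233 and 300 TPM in GFPpos IL-12+IL-21 cells, 231 and 131 TPM in IL-12+IL-21 GFPneg cells, and 1121 and 1474 TPM in IL-12 GFPneg cells. It was listed at 0 in 4 of the 6 IL-1b+IL-6+IL-23 libraries, with 0.90 TPM at most, and in all 3 TGFb+IL-6 libraries. In GFPneg cells Ifng was lower with IL-12 and IL-21 than with IL-12 alone, by -2.88 ± 0.37 on the log2 scale (SE, limma adjusted p = 0.00101), in the comparison in which none of the 10 genes passed. Ifnb1, the gene of interferon beta, was listed at 0 in all 16 libraries.

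Ifngr1, which encodes the ligand-binding chain, had 32.9 to 49.5 TPM in IL-12+IL-21 cells and 38.2 to 42.0 TPM in IL-12 cells, against 6.23 to 13.0 TPM in IL-1b+IL-6+IL-23 cells and 63.1 to 78.2 TPM in TGFb+IL-6 cells. It was highest in the culture in which the GTPases were lowest. Against IL-1b+IL-6+IL-23 it differed by 2.16 ± 0.25 with IL-12+IL-21 in GFPpos cells (SE, limma adjusted p = 3.79e-05). Ifngr2, the chain that couples the receptor to JAK2, was lower with IL-12 than without it, with 4.15 to 6.34 TPM in IL-12+IL-21 cells and 1.17 to 3.38 TPM in IL-12 cells, against 12 to 17.3 TPM in IL-1b+IL-6+IL-23 cells and 21.7 to 33.1 TPM in TGFb+IL-6 cells. Its difference in GFPneg cells was -2.33 ± 0.28 for IL-12 against IL-1b+IL-6+IL-23 (SE, limma adjusted p = 6.15e-05).

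Of 10 signal transducers and brakes, limma called 0 between either IL-12 culture and IL-1b+IL-6+IL-23. Of all genes tested, 3.59%, 2.16% and 4.3% were higher and 1.38%, 1.25% and 2.71% lower there, so 0 of 10 does not set these genes apart. At an unadjusted p under 0.05, 2 were higher with IL-12+IL-21 in GFPpos cells, where 15.7% of all genes had such a p, 1 was lower in GFPneg cells, where 12.5% had one, and 0 differed with IL-12, where 21.1% had one. Against TGFb+IL-6, 2 of the 10 were higher in IL-12+IL-21 GFPneg cells (4.81% of all genes tested) and 2 in GFPneg IL-1b+IL-6+IL-23 cells (10.6%). Usp18, a brake on the type I interferon receptor, was among them in both, with a log2 difference of 2.96 each time (SE 0.30 and 0.27, limma adjusted p = 7.63e-06 and 2.31e-06).

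Of 21 other interferon-inducible GTPases, 18 could be tested. In IL-12+IL-21 cells 8 were higher in the GFPpos gate (3.59% of all genes) and 7 in the GFPneg gate (2.16%) than in IL-1b+IL-6+IL-23 cells. With IL-12, 5 were higher (4.3%). None of the 18 was lower in these comparisons, where 1.38%, 1.25% and 2.71% of all genes were. Their median log2 difference was 1.58, 0.83 and 0.82, against 0.15, -0.01 and 0.09 over all genes tested. Iigp1, an effector IRG that breaks up the vacuole of Toxoplasma gondii, averaged 7.51 TPM in GFPpos IL-12+IL-21 cells against 0.573 TPM in GFPpos IL-1b+IL-6+IL-23 cells, a log2 difference of 2.47 ± 0.32 (SE, limma adjusted p = 0.000122). Tgtp1, an effector IRG first described in T cells, averaged 38.2 against 6.42 TPM in these groups, and Gm12250 18.4 against 4.10 TPM. Against TGFb+IL-6, 8 of the 18 were higher in IL-12+IL-21 GFPneg cells (4.81% of all genes tested) and 6 in GFPneg IL-1b+IL-6+IL-23 cells (10.6%).

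Other IRF genes did not follow Irf1 as a family. Irf8, a partner of IRF1 on DNA, averaged 82.9 TPM in GFPpos IL-12+IL-21 cells against 4.08 TPM in GFPpos IL-1b+IL-6+IL-23 cells, a log2 difference of 4.08 ± 0.36 (SE, limma adjusted p = 1.91e-06). Unlike Irf1, it was lower with IL-12 and IL-21 than with IL-12 alone, by -2.17 ± 0.44 (limma adjusted p = 0.0317); a difference between both genes was not tested. Irf4 was higher as well, 52.0 against 15.9 TPM in GFPpos cells. Irf7, which amplifies type I interferon responses, was lower, 9.79 TPM in GFPpos IL-12+IL-21 cells against 39.9 TPM in GFPpos IL-1b+IL-6+IL-23 cells, a log2 difference of -1.91 ± 0.31 (limma adjusted p = 0.00103). In IL-1b+IL-6+IL-23 GFPneg cells Irf7 was higher than in TGFb+IL-6 GFPneg cells, 57.0 against 6.65 TPM, while Irf8 was lower, 4.27 against 19.8 TPM.

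**Figure D5:**
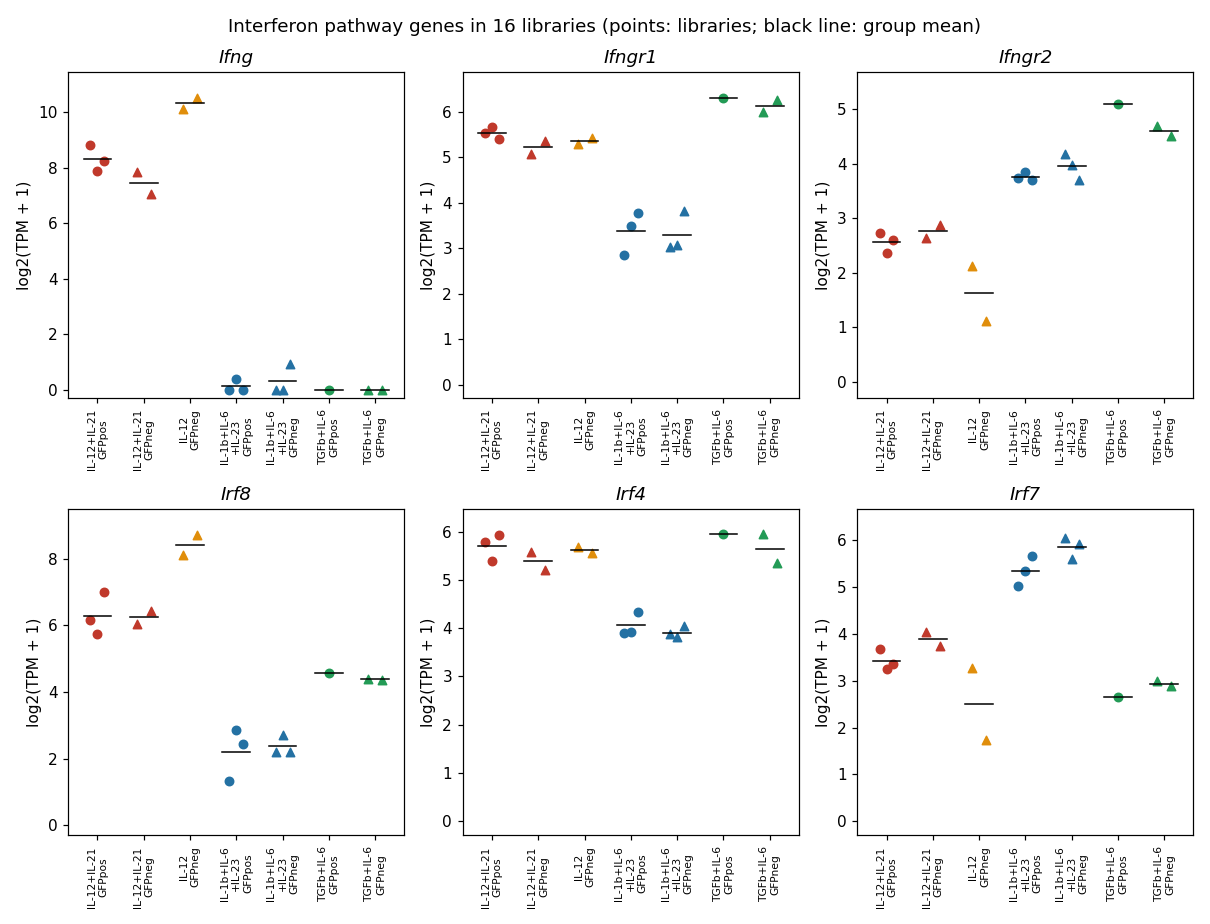
Levels (log2(TPM + 1), y axes start near 0) of 6 interferon pathway genes in 16 libraries of 7 groups; circles are GFPpos libraries, triangles GFPneg libraries and black lines group means. Ifng is near 0 in both cultures without IL-12, and Ifngr1, Irf8 and Irf4 are lowest and Irf7 is highest under IL-1b+IL-6+IL-23.

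Over the 16 libraries, the members that most resembled the mean of the other 9 were Gbp4 (Pearson r = 0.979), Gbp6 (0.975), Igtp (0.972) and Gbp2 (0.970), on log2(TPM + 1). Irf1 had an r of 0.931, Irgm1 0.869, Gbp5 0.839 and Irgm2 0.812, and the lowest were Gbp3 with 0.727 and Gbp7 with 0.651. Among 5052 other genes with a mean of at least 5 TPM, the 8 with the highest r to the mean of the 10 were Gm12250 (0.975), Ms4a6b, Serpinb9, Tagap, Gbp8, Gadd45g, Gimap6 and Penk (0.966). Of these, Gm12250 and Gbp8 were on the list of interferon-inducible GTPases. The libraries share their cultures, so these values describe the order of the cultures and carry no p.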

How the data were processed

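RNA of mouse CD4 T cells was measured in 21 SMART-Seq2 libraries. The authors deposited TPM values; Trimmomatic 0.32, Bowtie2 2.2.9, RSEM 1.2.31 and GRCm38 stand in the submitters' processing notes, while the annotation and the use of strand are not given in the sources used here. TPM keeps no depth, so no counting interval could be given, and a value of 0 can be a failed estimate. Columns were tied to samples by name, and 0 columns lacked a sample.

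Libraries with at least 7000 genes at 1 TPM or more were used. Group means of log2(TPM + 1) were fitted with limma 3.58.1 (R 4.3.3) and moderated along the mean-variance trend. P-values were adjusted by Benjamini-Hochberg for each comparison over the 9592 genes with at least 1 TPM in at least 3 libraries; all groups shared 1 estimate of the spread, and 0.05 was the threshold. Differences on this scale understate changes of low genes. The code was tested on simulated data. Alternatives were other pseudocounts (0.1, 5), other filters (none, 5 TPM), median-ratio scaling, all 21 libraries, no libraries over 50% ribosomal protein TPM (the same 16), a replicate block, only the libraries compared, and each library left out in turn.

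Named genes are the 10 members, up to 4 called genes with the smallest adjusted p of each list in each comparison, Ifng, Ifngr1 and Ifngr2, and the 8 genes most like the members; Ifnb1 and the ratios were picked after their values were seen. The members and lists were chosen with earlier results of these data known. A result on 1 gene of the pathway is not reported here.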

Additional observations from a re-analysis of the deposited data

Results flagged for a closer look

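In 2 libraries that were left out for holding few genes, some members stood above all 16 libraries used. TGFb+IL-6 GFPpos replicate 3, with 1157 genes above 0, had 734 TPM of Igtp (highest of the 16 libraries 602), 165 TPM of Irgm1 (75.0) and 354 TPM of Irf1 (95.4), and listed the other GTPases at 0 but for 149 TPM of Gbp2. IL-12+IL-21 GFPneg replicate 3, with 1331 genes above 0, had 355 TPM of Gbp2 (271), 47.1 TPM of Gbp4 (36.6) and 58.2 TPM of Gbp6 (40.9), and listed Irf1, Irgm1, Irgm2, Gbp3, Gbp5 and Gbp7 at 0. What sets these values apart was not tested.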

How the results depend on the processing

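The 5, 5, 5, 8 and 6 genes called between cultures (in the order of the report) became 0 in each with all 21 libraries, and Irf1 for IL-12+IL-21 against IL-1b+IL-6+IL-23 in GFPneg cells (-0.038), Gbp2 (-0.50) and Gbp4 (-0.19) for IL-12 against it then changed sign; the cause was not tested. Leaving out each library in turn gave 5 to 5, 3 to 5, 3 to 5, 5 to 7 and 4 to 7. Of the values of single members and of the 3 ratios, 55 lost and 7 gained a call over all settings. Another 1353 stayed on their side of the threshold. For the ratios, that side came from an exact permutation test on pairs picked after their values were seen. Their GFPneg libraries with and without IL-12 did not overlap, so leaving out 1 library could not move a ratio over the threshold. The ratios in this count therefore say nothing about stability. Uncalled differences near 0 could still change sign. For the gate with IL-12+IL-21, that of Igtp (0.03) ranged from -0.13 to 0.19 when a library was left out. Gbp5 passed for IL-12+IL-21 against IL-1b+IL-6+IL-23 in GFPneg cells with median-ratio scaling. For IL-12+IL-21 against TGFb+IL-6, Gbp7 passed with a pseudocount of 0.1, median-ratio scaling or the replicate block, and Irgm2 did not pass in 6 settings. For IL-1b+IL-6+IL-23 against TGFb+IL-6, Irf1 passed at a minimum of 5 TPM, and Irf1 and Gbp3 passed in 1 fit each that left out a library. Of the 8 genes most like the members, 3 were among the 8 when group means were ranked.

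Same-numbered libraries correlated with r of -0.09 to 0.26 (median 0.04) after group means were removed. Different-numbered libraries had r of -0.22 to 0.11 (median -0.03). The labels do not say what the numbers mark, so the reported fit held no block. With the replicate number as a block, the calls were 0 for the gates and for IL-21, and 5, 5, 5, 8 and 6 between cultures, where Irgm2 lost and Gbp7 gained a call among the 8.

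Median-ratio scaling brought the median of all genes near 0, from 0.24, 0.37, 0.15, 0.21 and 0.23 for the gate with IL-12+IL-21, the gate with TGFb+IL-6, IL-12+IL-21 against IL-1b+IL-6+IL-23 in GFPpos cells, and the 2 comparisons with TGFb+IL-6. All genes higher and lower then numbered 3 and 6 (reported 11 and 4) and 7 and 12 (25 and 6) for these gates, 26 and 13 (33 and 8) for the gate under IL-1b+IL-6+IL-23, 38 and 23 (30 and 43) for IL-21, 256 and 227 (344 and 132), 333 and 396 (412 and 260, IL-12 against IL-1b+IL-6+IL-23), 368 and 405 (461 and 193) and 725 and 838 (1015 and 463). Leaving out a library, all genes called between cultures numbered 317 to 467 (476), 152 to 266 (327), 298 to 560 (672), 308 to 488 (654) and 667 to 1410 (1478), and 14 to 71 (73) for IL-21. With all 21 libraries the genes called fell to between 0 and 32. Fitting only the libraries compared called 51, 170, 44, 209 and 412 genes (reported 15, 31, 73, 327 and 672), a pseudocount of 5 called 31 and 59 (15 and 31), one of 0.1 called 23 (41), no filter 18 and 250 (41 and 31), and the block 23 and 135 (15 and 73). Depth was unknown, and the levels of Gbp3, Gbp5 and Gbp7, under 5 TPM, were close to the pseudocount.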

Other observations

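Of 22 further genes known as interferon gamma targets, 20 could be tested. Against IL-1b+IL-6+IL-23, 9 were higher and 1 lower in GFPpos IL-12+IL-21 cells, by limma. There were 5 higher and 1 lower in IL-12+IL-21 GFPneg cells, and 3 higher and 1 lower in IL-12 GFPneg cells. Of all genes tested, 3.59%, 2.16% and 4.3% were higher and 1.38%, 1.25% and 2.71% lower in these comparisons. The gene that was lower was Ido1, which encodes an enzyme that breaks down tryptophan, with 1.53 TPM in GFPpos IL-12+IL-21 cells against 19.9 TPM in GFPpos IL-1b+IL-6+IL-23 cells. Cxcl10, a chemokine that draws Th1 cells, averaged 24.6 against 2.43 TPM in these groups. It also averaged 24.3 TPM in IL-12+IL-21 GFPneg cells against 4.46 TPM in IL-12 GFPneg cells, a log2 difference of 2.25 ± 0.48 (SE, limma adjusted p = 0.0413). Against TGFb+IL-6, 13 of the 20 were higher and 0 lower in IL-12+IL-21 GFPneg cells, where 4.81% of all genes tested were higher and 2.01% lower. In IL-1b+IL-6+IL-23 GFPneg cells 10 were higher and 1 lower, where 10.6% of all genes were higher and 4.83% lower. Casp4, the sensor of cytosolic lipopolysaccharide that GBPs assist, averaged 32.6 TPM in IL-12+IL-21 GFPneg cells against 2.62 TPM in TGFb+IL-6 GFPneg cells.

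Of 10 genes of the autophagy conjugation machinery, which places GBP and IRG proteins on vacuoles, 0 were higher in either IL-12 culture than with IL-1b+IL-6+IL-23, by limma. Of all genes tested, 3.59%, 2.16% and 4.3% were higher in these comparisons, so 0 of 10 does not set these genes apart. At an unadjusted p under 0.05, 2 were higher and 0 lower with IL-12+IL-21 in GFPpos cells, 0 higher and 4 lower with IL-12+IL-21 in GFPneg cells, and 0 higher and 2 lower with IL-12, where 15.7%, 12.5% and 21.1% of all genes had such a p. Gabarapl1 was lower with IL-12, 24.5 TPM against 50.3 TPM in IL-1b+IL-6+IL-23 GFPneg cells, a log2 difference of -1.02 ± 0.25 (SE, limma adjusted p = 0.019). Against TGFb+IL-6, 3 were higher in IL-1b+IL-6+IL-23 GFPneg cells (Gabarap, Map1lc3b and Gabarapl2), with log2 differences of 0.70, 0.66 and 0.54. Of all genes tested, 10.6% were higher in that comparison.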
